A study of Saccharomyces cerevisiae with 5 samples.

Results

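The mRNAs of 42 cytosolic translation factor genes of Saccharomyces cerevisiae were followed on 5 spotted arrays of co-immunoprecipitated RNA. The genes were taken by symbol from the platform annotation of both deposited tables, by the factor each gene encodes, and all 42 had spots on both, among 5583 genes in all. They comprise 12 elongation factor genes, 27 genes of initiation factors and their close partners, and 2 release factor genes. STM1, the remaining gene, encodes a protein bound to the ribosome. HYP2 and ANB1 are counted as elongation factor genes despite the initiation factor name of their product, eIF5A. Shares with them counted as initiation factor genes were not computed. Each array compared RNA precipitated with zz-tagged Yra1, which helps hand mRNAs to the nuclear export receptor, with RNA precipitated with the bare zz tag. The question of the comparison is which mRNAs travel with Yra1. The 5 arrays form 1 group and are numbered 1 to 5. By the labels, channel 2 held the zzYra1 precipitate for arrays 1, 2 and 5, and channel 1 held it for arrays 3 and 4. They name no strain, growth condition, dye or separate culture. The titles give arrays 4 and 5 the same date, as slides 1 and 2 of opposite orientation, and each other array a date of its own. Whether arrays 4 and 5 share RNA is not stated, so results seen on both may stand for 1 experiment. The arrays may thus be technical repeats, and p-values cover no more than the spread among them.

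Protein synthesis in yeast starts when the small ribosomal subunit, carrying initiator tRNA on eIF2 and held by eIF3, eIF1, eIF1A and eIF5, is recruited to a capped mRNA by the eIF4F complex and scans to the start codon. In elongation eEF1A delivers aminoacyl-tRNA and is recharged by eEF1B, eEF2 moves the ribosome along, and fungi also need the ATPase eEF3. The release factors end the chain at a stop codon. Elongation factor mRNAs are known to be among the most abundant in growing yeast, and several of these proteins are encoded by a pair of gene copies.

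The deposited values are ratios of both channels, given here in log2 units from the median gene of the array. Which channel is the numerator is not stated in the labels or tables, and the data did not settle it: the median correlation over the 6 pairs of arrays with opposite orientation was -0.000445. A sign therefore says on which side of an array's median a gene lay, not which precipitate held more of its RNA. No correlation across genes between arrays exceeded 0.0468, and the lowest was -0.0816. The standard deviation over genes was 0.91 to 1.14 on arrays 1, 2, 3 and 5 and 2.51 on array 4. YRA1 itself had a value on array 3 alone (0.63).

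Repeated spots of a gene bear on the values below. The table of arrays 4 and 5 has duplicate spots of adjacent number, whose values correlated across genes at 0.803 on array 4 and 0.862 on array 5. On the table of arrays 1, 2 and 3, 1100 genes have 2 spots apart from each other, and there the correlations were 0.0342, 0.106 and -0.0256. The second spot had a value in 62.8% of genes whose first spot had one on array 1, and in 56.3% of genes whose first spot had none. On array 4 these shares were 82.8% and 5.03%. Of the 42 translation factor genes, 6 have 2 spots on the table of arrays 1 to 3: TEF4, STM1, TIF1, TIF4632, GCD2 and GCN3. Their values there are means of spots that need not agree, or stand on 1 of the 2 spots. The part this plays in the results was not tested.

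Elongation factor genes and initiation factor genes differed in how often they had a value at all on arrays 4 and 5. On array 4 a value was present for 8 of 12 elongation factor genes and for 4 of 27 initiation factor genes, where 23.9% of all genes on the table had one. On array 5 it was present for 10 of 12 and for 1 of 27, where 19.8% of all genes had one. The elongation share was 66.7% on array 4 (95% Wilson interval 39.1% to 86.2%) and 83.3% on array 5 (55.2% to 95.3%). The initiation share was 14.8% on array 4 (5.92% to 32.5%), an interval that includes the share of all genes, and 3.7% on array 5 (0.657% to 18.3%). These intervals treat genes as independent draws, which copies that can bind the same cDNA may not be, so they give no test. They cover counting error only, and the arrays share a date and a table. Taken as 1 list, 13 of the 42 genes had a value on each of these arrays (31.0%).

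The elongation factor genes with a value on both arrays were TEF1, TEF2, EFT2, HEF3, NEW1, HYP2 and ANB1. EFT1 had one on array 4 alone, and EFB1, TEF4 and YEF3 on array 5 alone. CAM1, for a gamma subunit of eEF1B, was the only elongation factor gene with none on either. Among the initiation factor genes only TIF34, of eIF3, had a value on both, and TIF4632, TIF1 and TIF2, of eIF4F, had one on array 4 alone. None of the 3 genes of eIF2, the 5 of eIF2B, or the 4 of eIF1, eIF1A, eIF5 and eIF5B had a value on array 4 or array 5. In all, 11 of 12 elongation factor genes (91.7%) and 4 of 27 initiation factor genes (14.8%) had a value on at least 1 of both arrays, against 33.7% of all genes. The difference in share was seen within these arrays and was not tested, since genes are not replicates of a condition.

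The contrast was also present when a gene was counted only if both of its duplicate spots had a value. It then stood at 7 of 12 against 1 of 27 on array 4, where 16.4% of the genes outside the 42 met this rule, and at 10 of 12 against 1 of 27 on array 5, where 13.1% did. Only 1 of the 4 initiation factor genes on array 4, TIF34, had both spots. In the R64 reference gene table the 17 translation factor genes with a value on array 4 or 5 had a median length of 1377 bp. The other 25 had one of 1248 bp. Lengths of elongation and initiation factor genes were not compared, and whether length moved with these shares was not tested. Spots without a gene symbol were filled in 17.7% of cases on array 4 and 15.7% on array 5, against 20.1% and 16.5% of spots with a symbol. Signal intensities were not used here, so whether brightness moved with these shares was not tested.

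Array 2 showed a smaller contrast of the same direction, while on arrays 1 and 3 the initiation share was the higher. On array 1 a value was present for 3 of 12 elongation factor genes and 13 of 27 initiation factor genes, where 44.3% of all genes had one. On array 2 it was present for 8 of 12 and 12 of 27, against 51.1%. Array 3 gave values for 97.6% of all genes, including all 27 initiation factor genes and 11 of 12 elongation factor genes; EFB1 was the exception. Arrays 1 and 2 come from one table with the same spots, yet of the 27 initiation factor genes only 3 had a value on both, while 10 had one on array 1 alone of this pair and 9 on array 2 alone. These are 11.1% on both, 37.0% on array 1 and not 2, and 33.3% on array 2 and not 1. Of all genes, 23.3% had a value on both, 21.0% on array 1 and not 2, and 27.8% on array 2 and not 1. The overlap was thus smaller for the initiation factor genes than for all genes, a difference that was not tested. Among the genes of eIF3, 3 of 6 had a value on array 1 and none on array 2. No translation factor gene had a value on all 5 arrays, as 2.62% of all genes did, and 8 had one on 4 (19.0%, against 10.4% of all genes).

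**Figure D1:**
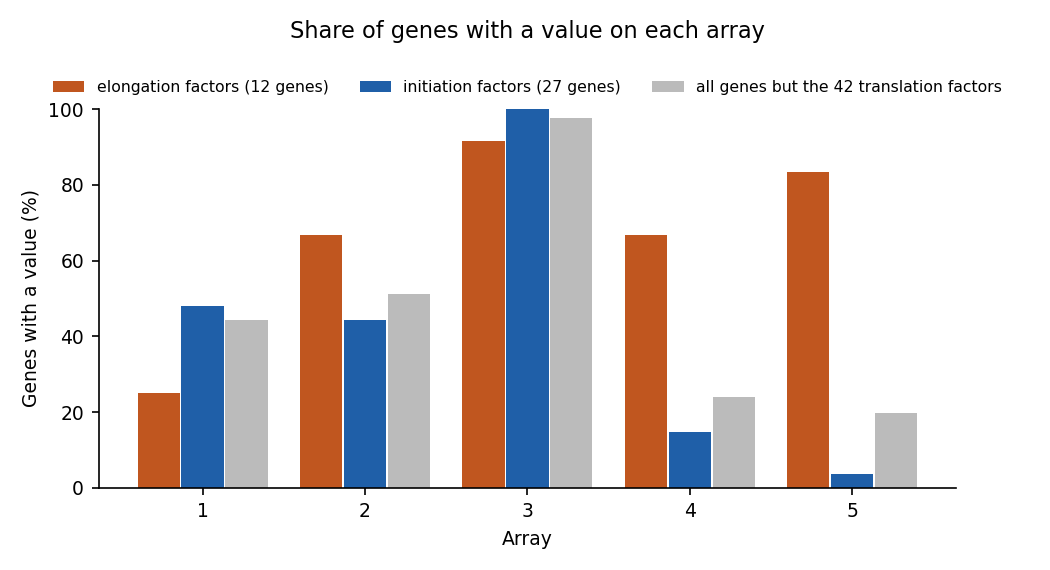
Percentage of genes with a value (vertical axis) on arrays 1 to 5 (horizontal axis) for the 12 elongation factor genes, the 27 initiation factor genes, and all genes of the table outside the 42 translation factors. On arrays 4 and 5 the elongation bars reach 66.7% and 83.3%, and the initiation bars 14.8% and 3.7%.

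**Figure D2:**
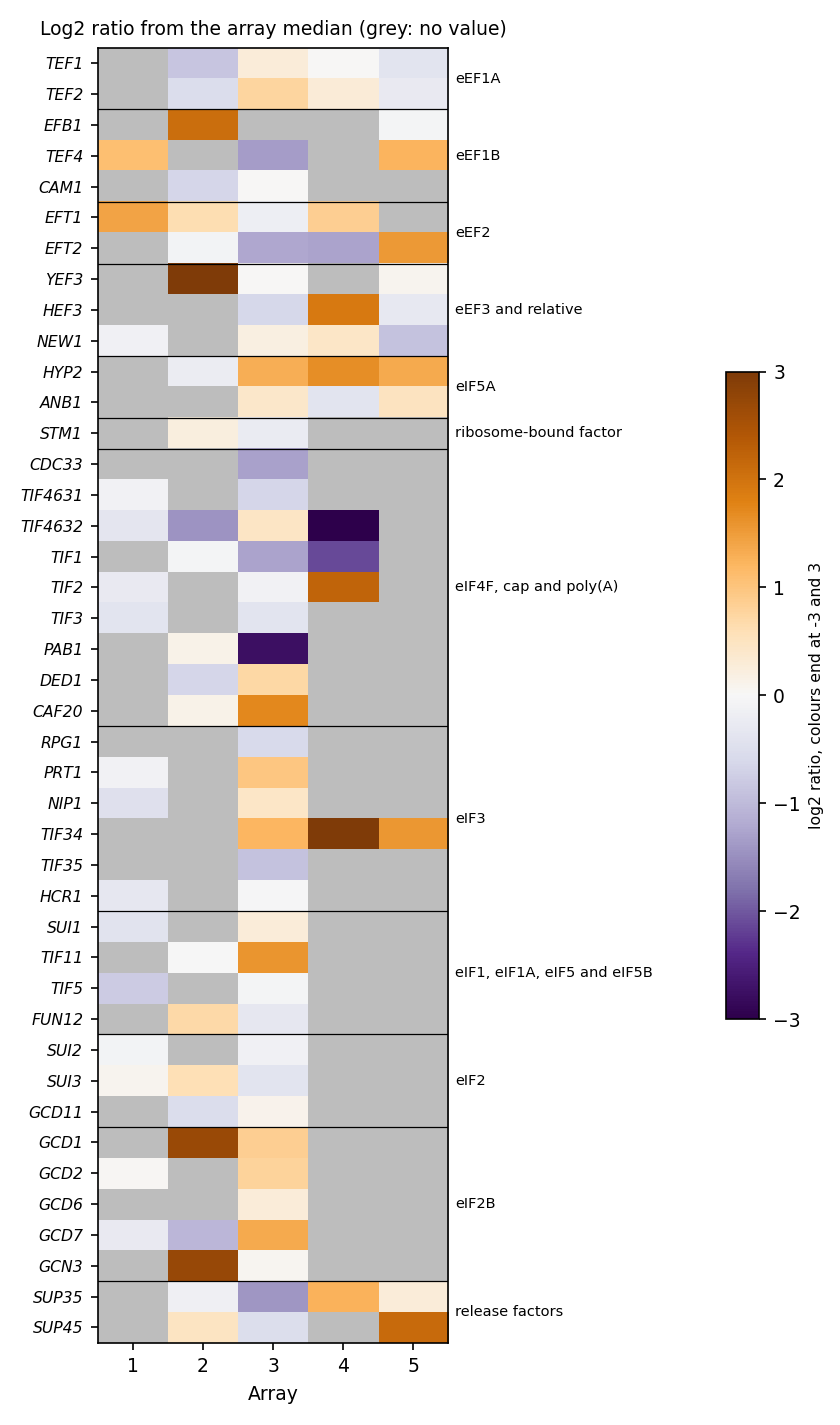
Log2 ratio of each of the 42 genes (rows, grouped by factor) on each array (columns), measured from the median gene of the array, with genes without a value in grey and colours ending at -3 and 3. In the rows of initiation factors, arrays 4 and 5 are grey apart from TIF34 on both and TIF4632, TIF1 and TIF2 on array 4.

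The genes of eEF1A, which brings aminoacyl-tRNA to the ribosome, lay within 1 log2 unit of the array median wherever they were measured. TEF1 (YPR080W) had values of -0.87, 0.27, 0.02 and -0.38 on arrays 2 to 5, and none on array 1. TEF2 (YBR118W), which encodes the same protein, had -0.52, 0.75, 0.29 and -0.26. Both were below the median on arrays 2 and 5 and above it on arrays 3 and 4. On arrays 4 and 5 the duplicate spots of TEF1 differed by 0.08 and 0.005, and those of TEF2 by 0.10 and 0.52.

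The eEF1B genes were measured on few arrays and took no common side. EFB1 (YAL003W), for the catalytic alpha subunit, stood at 2.07 on array 2 and at -0.07 on array 5. TEF4 (YKL081W), for a gamma subunit, stood at 1.09 on array 1, -1.36 on array 3 and 1.24 on array 5, where its duplicate spots read 0.46 and 2.03. CAM1 (YPL048W) stood at -0.65 and 0.02 on arrays 2 and 3. TEF4 was thus above the median on both of its arrays with the zzYra1 precipitate in channel 2, and below it on the one with the opposite orientation; it was too sparse for the fit of all arrays, which asked for 4 values.

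The eEF2 genes reached further from the median. EFT1 (YOR133W) stood at 1.43, 0.63, -0.17 and 0.86 on arrays 1 to 4, the highest translation factor value on array 1. EFT2 (YDR385W) stood at -0.07, -1.23, -1.27 and 1.52 on arrays 2 to 5. EFT2 was past 1 log2 unit on the low side on both arrays of one orientation and on the high side on array 5. Of all genes with a value, 13.4% lay that low on array 3 and 35.1% on array 4, and 20.8% lay that high on array 5.

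Among the ATPases, YEF3 (YLR249W), for eEF3, had the highest value of the 42 genes on array 2 (3.04) and lay close to the median on array 3 (0.01) and array 5 (0.08). HEF3 (YNL014W), a paralogue of YEF3, stood at -0.62, 1.90 and -0.30 on arrays 3 to 5. Its value on array 4 came from 1 of the 2 duplicate spots. NEW1 (YPL226W), for a relative of eEF3 with a prion-forming domain, stood at -0.14, 0.20, 0.44 and -0.91 on arrays 1, 3, 4 and 5, where its duplicate spots on array 5 differed by 1.30.

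HYP2 (YEL034W), for the aerobic form of eIF5A, was above 1 log2 unit on 3 of the 4 arrays that measured it. Its values were -0.23, 1.30, 1.65 and 1.35 on arrays 2 to 5, and its duplicate spots differed by 0.27 on array 4 and 0.06 on array 5. ANB1 (YJR047C), for the form made at low oxygen, stood at 0.41, -0.39 and 0.50 on arrays 3 to 5. The 3 high values of HYP2 came from arrays of both orientations. On arrays 3 to 5, 12.4%, 32.7% and 20.8% of all genes with a value were at least 1 log2 unit above the median.

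The genes of eIF4F and its partners were measured mainly on arrays 1 to 3. CDC33, for the cap-binding protein eIF4E, had a value on array 3 alone (-1.29). TIF4631, for one form of the scaffold eIF4G, stood at -0.10 on array 1 and -0.64 on array 3. TIF4632, for the other form, stood at -0.35, -1.44, 0.46 and -4.52 on arrays 1 to 4. The value of -4.52 was the lowest of any translation factor on any array and came from 1 of the 2 duplicate spots.

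TIF1 and TIF2 encode the same helicase, eIF4A. TIF1 stood at -0.07, -1.27 and -2.11 on arrays 2 to 4, and TIF2 at -0.26, -0.10 and 2.22 on arrays 1, 3 and 4. TIF3, for eIF4B, stood at -0.40 and -0.38 on arrays 1 and 3. On array 4 both helicase genes were measured on 1 of 2 spots each, on opposite sides of the median.

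PAB1, for the poly(A)-binding protein, stood at 0.12 on array 2 and -2.76 on array 3, the lowest value of the list there. CAF20, for a protein that binds eIF4E in place of eIF4G, stood at 0.14 and 1.72 on the same arrays, the highest of the list on array 3. DED1, for a helicase of scanning, stood at -0.64 and 0.71. On array 3 the genes of this group thus ran from one end of the list to the other.

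In eIF3, TIF34 (YMR146C) was the one subunit gene measured on arrays 4 and 5. It stood at 1.22, 3.40 and 1.57 on arrays 3 to 5, above the median each time. Its duplicate spots on array 4 differed by 2.92, the widest gap of any translation factor there, and those on array 5 by 0.19. PRT1 stood at -0.10 and 0.96, NIP1 at -0.47 and 0.44, and HCR1, for a loosely bound partner of the complex, at -0.33 and -0.03 on arrays 1 and 3. RPG1 (-0.60) and TIF35 (-0.91) were measured on array 3 alone. The 6 genes lay on both sides of the array 3 median, though their proteins form one complex.

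The genes of start codon selection and of subunit joining lay within 1 log2 unit of the median on arrays 1 and 2, with TIF5 the lowest translation factor on array 1. SUI1, for eIF1, stood at -0.40 and 0.28 on arrays 1 and 3, and TIF5, for eIF5, at -0.79 and -0.06. TIF11, for eIF1A, stood at -0.02 on array 2 and 1.58 on array 3, and FUN12, for the GTPase eIF5B, at 0.69 and -0.31. Only TIF11 on array 3 passed 1 log2 unit.

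The eIF2 genes all lay within 1 log2 unit of the median. SUI2, for the alpha subunit, stood at -0.08 and -0.13 on arrays 1 and 3. SUI3, for the beta subunit, stood at 0.08, 0.61 and -0.38 on arrays 1 to 3. GCD11, for the gamma subunit, stood at -0.52 and 0.10 on arrays 2 and 3.

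The genes of eIF2B, the exchange factor that recharges eIF2, held the highest initiation factor values on array 2. GCD1 stood at 2.68 there and at 0.87 on array 3, and GCN3 at 2.72 and 0.05. GCD7 stood at -0.26, -1.04 and 1.35 on arrays 1 to 3, GCD2 at 0.04 and 0.79 on arrays 1 and 3, and GCD6 at 0.27 on array 3. All 5 genes were above the median on array 3, but the 2 spots of GCN3 read 1.70 and -1.60 there, and its value on array 2 came from 1 of these spots.

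The release factor genes had no value on array 1. SUP35, for eRF3, stood at -0.15, -1.41, 1.25 and 0.26 on arrays 2 to 5, and SUP45, for eRF1, at 0.48 and -0.51 on arrays 2 and 3 and at 2.13 on array 5. SUP45 had the highest translation factor value on array 5. STM1 stood at 0.22 and -0.25 on arrays 2 and 3, where its 2 spots differed by 0.89 and 2.16.

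Set against the other genes of each array, the translation factors reached past a 2-fold difference (1 log2 unit) from the median in shares that mostly lay near the background. On array 1, 2 of 16 were that far above it (EFT1 and TEF4) and 0 of 16 below, where 14.6% and 4.2% of all genes with a value were. On array 2, 4 of 23 were above and 2 below, against 12.8% and 8.13%. On array 3, 5 of 41 were above and 6 below, against 12.4% and 13.4%. On array 4, 5 of 13 were above and 3 below, against 32.7% and 35.1%. On array 5, 5 of 13 were above (SUP45, TIF34, EFT2, HYP2 and TEF4) and 0 below, against 20.8% and 15.4%. Array 5 was the furthest from its background, by counts of few genes.

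The medians of the elongation and initiation genes differed most on arrays where 1 of the classes was sparse. On array 1 the 3 elongation genes had a median of 1.09 and the 13 initiation genes one of -0.26. On arrays 2 and 3, with 8 and 11 elongation genes and 12 and 27 initiation genes, the medians were -0.15 and 0.05, and 0.02 and 0.05. On array 4 they were 0.37 and 0.05, and on array 5 the elongation median of 0.01 had 1 initiation gene, TIF34, to be set against. The initiation genes of array 1 kept close together, between -0.79 (TIF5) and 0.08 (SUI3), with 11 of 13 below the array median. The middle 50% of these 13 genes spanned 0.30 log2 units, against 0.98 for all genes of that array. The 9 measured genes of aminoacyl-tRNA synthetases were as narrow there, with a span of 0.29, a median of -0.28 and 7 of 9 below the array median. On array 3 the 27 initiation genes spanned 1.13 and all genes 1.19. These medians and spans describe single arrays and were not tested.

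**Figure D3:**
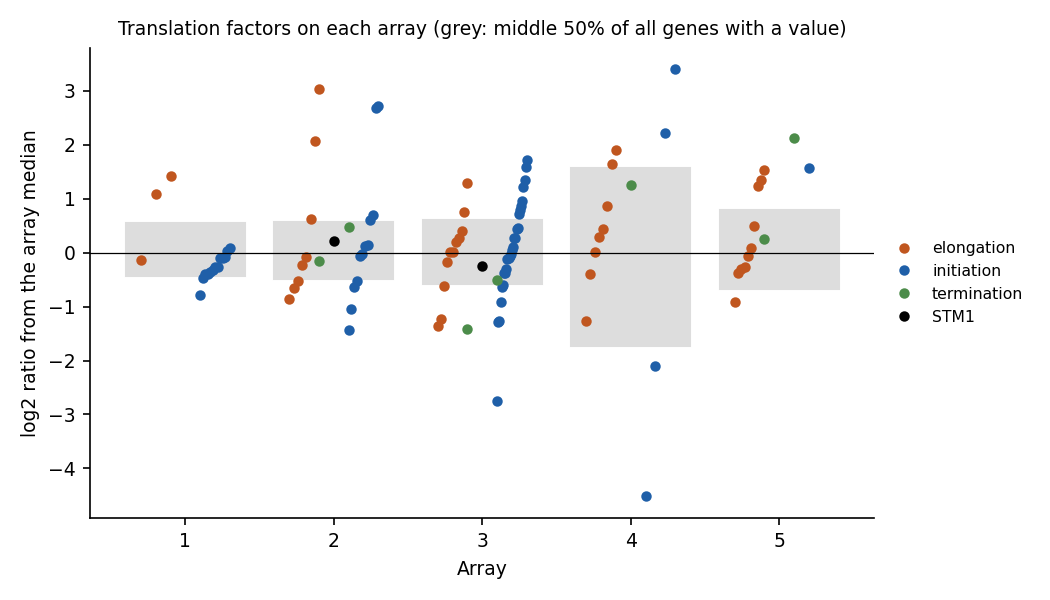
Log2 ratio from the array median (vertical axis) of every translation factor gene with a value, by array (horizontal axis) and class, with the grey box spanning the middle 50% of all genes. On array 1 the initiation genes sit between -0.79 and 0.08, while EFT1 and TEF4 lie at 1.43 and 1.09.

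Gene copies offered a check within each array, because cDNA of one copy can bind the spot of the other and both spots may then report on a mixture. TEF1 and TEF2 kept together on all 4 arrays that measured both. They differed by 0.35, 0.48, 0.27 and 0.12 on arrays 2 to 5 and lay on the same side of the median on 4 of 4. On arrays 4 and 5 the differences of 0.27 and 0.12 were below the median gap between duplicate spots of single genes, 0.45 and 0.28. On arrays 2 and 3 the corresponding gaps, 0.75 and 1.03, come from spots that did not correlate and give no measure of agreement.

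EFT1 and EFT2, which also encode one protein, were further apart. They differed by 0.70, 1.06 and 2.12 on arrays 2 to 4, and on arrays 2 and 4 they lay on opposite sides of the median. The gap on array 4, the only one of these arrays with correlated duplicate spots, exceeds the gap between the duplicate spots of each gene there, 0.39 for EFT1 and 0.33 for EFT2. TIF1 and TIF2 differed by 1.16 on array 3 and by 4.33 on array 4. On array 3 the 2 spots of TIF1 alone differed by 1.08.

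Pairs of paralogues whose proteins differ lay 0.25 to 2.04 apart. HYP2 lay above ANB1 by 0.89, 2.04 and 0.85 on arrays 3 to 5. YEF3 lay above HEF3 by 0.63 on array 3 and 0.38 on array 5. TEF4 minus CAM1 was -1.38 on the 1 array with both, and TIF4631 and TIF4632 differed by 0.25 on array 1 and 1.10 on array 3. HYP2 was the higher gene on 3 of 3 arrays, which include both orientations. On array 3 the gap fell to 0.05 when each spot was set against its neighbours, meaning spots of other genes within 10 spot numbers.

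**Figure D4:**
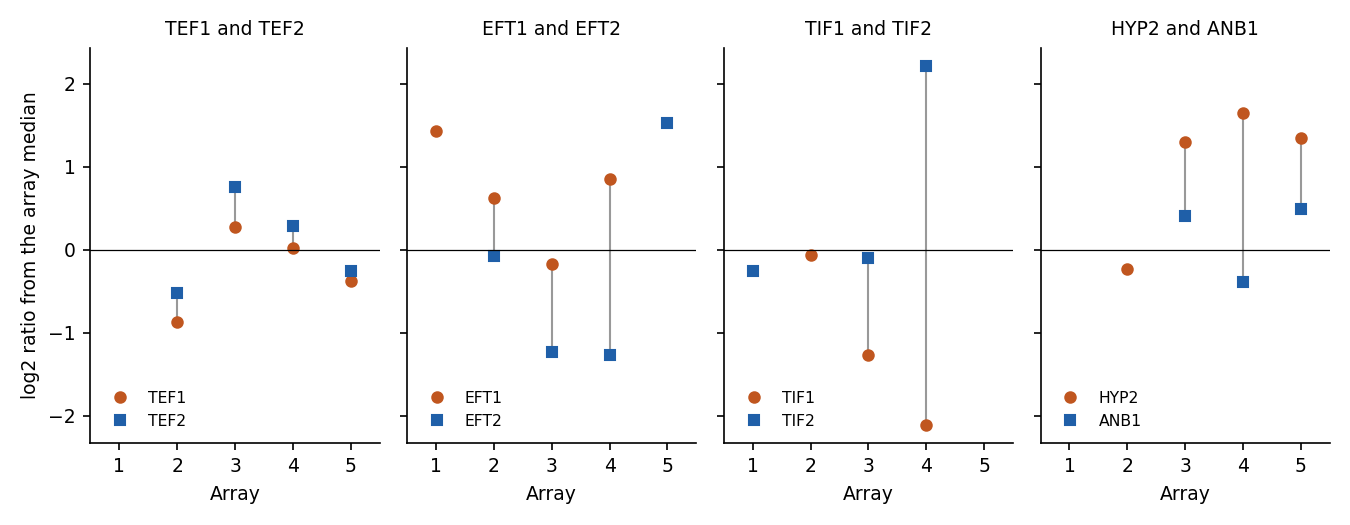
Log2 ratio from the array median (vertical axis) of both genes of 4 pairs on arrays 1 to 5 (horizontal axis), with a grey line joining the genes where both had a value. TEF1 and TEF2 lie within 0.48 of each other on 4 arrays, while TIF1 and TIF2 lie 4.33 apart on array 4.

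No translation factor gene passed the test over all arrays. Because the numerator is unknown, the fit gave 2 values for each gene: a channel reading, in which one channel is taken as numerator throughout, so that arrays 3 and 4 change sign, and a deposited reading, in which the signs stand as deposited. Of the 42 genes, 8 had a value on 4 arrays and could be tested, among 725 genes in all. In limma with Benjamini-Hochberg adjustment 0 of these 8 passed a threshold of 0.05 in either reading, where 0% of all genes tested were called, and none of the 8 lay under 0.05 before adjustment. Before adjustment 19 of the 725 genes lay under it in the first reading and 25 in the second.

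In the channel reading EFT2 lay furthest from 0, at 0.99 ± 0.53 (log2, SE; 4 arrays; limma adjusted p = 0.905). Its 95% interval ran from -0.23 to 2.21. EFT1 lay at 0.34 ± 0.52, TIF4632 at 0.57 ± 0.80, and SUP35 at 0.07 ± 0.60. HYP2 and TEF2 lay at -0.46, NEW1 at -0.42 and TEF1 at -0.39. The 8 genes were split evenly by sign, 4 positive and 4 negative, with a median of -0.16, against 0.06 for all 725.

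In the deposited reading TIF4632 lay furthest, at -1.46 ± 0.80 (log2, SE; limma adjusted p = 0.903), with an interval from -3.28 to 0.36. HYP2 followed at 1.02 ± 0.54, with an interval from -0.21 to 2.24 and an adjusted p of 0.903 in limma. EFT1 lay at 0.69, EFT2 at -0.26, TEF1 at -0.24, NEW1 at -0.10, TEF2 at 0.07 and SUP35 at -0.01. The intervals of the 8 genes reached 1.15 to 1.82 log2 units to either side, so that a shift below 2-fold could not have been told from 0 for any of them. In simulated data with normal noise of the spread of these arrays, upward shifts were placed in 200 of the 725 genes, in the channel reading. Of genes with a shift of 1 log2 unit 8.475% were called, of those with 2 55.844% and of those with 4 100%. These rates hold for that many shifted genes and may be lower where few genes shift, which was not simulated. Recovery in the deposited reading was not simulated either. With arrays 4 and 5 averaged as 1 array of the same date, a setting chosen after seeing the data, 0 of the 8 genes passed in either reading.

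**Figure D5:**
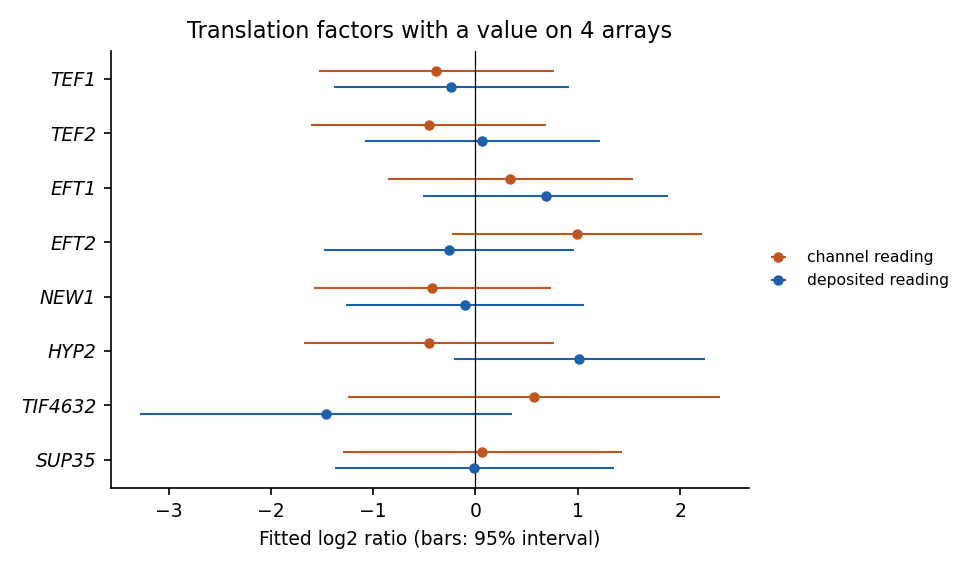
Fitted log2 ratio with its 95% interval (horizontal axis) for the 8 translation factor genes with values on 4 arrays (vertical axis), in both readings of the direction. Every interval includes 0, and that of TIF4632 in the deposited reading reaches furthest below 0, from -3.28 to 0.36.

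Without array 3, TIF4632 lay at -2.71 in the deposited reading and passed the threshold. That fit called 13.3% of 602 genes in this reading and 11.3% in the channel reading, and array 4, where TIF4632 was measured on 1 spot, was then the only array of its orientation. The error of that fit thus holds no spread of array 4. With the arrays also scaled to equal spread, a setting chosen after seeing the data, the value of TIF4632 was -1.78 and did not pass. When genes with a value on 3 arrays were admitted, 18 translation factors were tested and 0 passed. TIF34 then ranked first among them in the deposited reading (1.94 ± 0.71, limma adjusted p = 0.999), and TEF4 in the channel reading (1.26 ± 0.59, limma adjusted p = 0.99).

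Arrays of one orientation, fitted apart, gave no call either. No translation factor gene had a value on all of arrays 1, 2 and 5, where 281 genes were tested in limma and 0% called. On arrays 3 and 4, 13 of 1300 tested genes were translation factors; 0 passed, 0% of all genes did, and 65 genes had an unadjusted p under 0.05, none of them a translation factor. TIF34 lay at 2.31 ± 1.36 there (limma adjusted p = 0.966), TIF4632 at -2.03 ± 1.36, TIF1 at -1.69 and HYP2 at 1.47. This error is pooled over genes and is the same for each of the 13. Between arrays 3 and 4, 7 of the 13 genes lay on the same side of the array median, and between arrays 2 and 5, 4 of 8 did. Arrays 1 and 2 shared 4 translation factors, all on the same side: EFT1 and SUI3 above the median, TIF4632 and GCD7 below. Over the 1301 genes with a value on both of these arrays the correlation was -0.0259. The share of all genes on the same side was not counted for any pair.

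None of the tested genes that work beside the translation factors passed. The 22 genes of cytosolic aminoacyl-tRNA synthetases and their cofactor, which charge tRNAs for elongation, had a value in 7 cases on array 4 (31.8%) and 6 on array 5 (27.3%), where other genes had one in 23.9% and 19.8%. Their difference from the elongation factor genes was not tested. Of the 22, 4 were tested in limma and 0 passed; VAS1, for the valine enzyme, lay at 1.17 ± 0.56 in the channel reading (adjusted p = 0.905) and SES1, for the serine enzyme, at -0.26 ± 0.51. Of 24 genes of translation control and ribosome recycling, 5 had a value on array 4 and 5 on array 5, 3 were tested and 0 passed. Among them were GCN4, for the transcription factor whose mRNA is controlled by upstream reading frames (-0.51 ± 0.75), and TMA22 (-0.22 ± 0.57).

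The 5 genes of enzymes that modify translation factors, among them the diphthamide pathway for eEF2 and the hypusine enzymes for eIF5A, had no value on arrays 4 and 5 and none was tested. Of 7 genes of ribosome-associated chaperones, 2 had a value on array 4 and 1 on array 5. SSB2, for an Hsp70 that binds nascent chains, was the only one tested, at 0.94 ± 0.93 in the channel reading (adjusted p = 0.905 in limma). It stood at 3.97 on array 1 and at -1.06, -0.78 and 0.42 on arrays 2, 3 and 5, so that array 1 alone lay far above the median.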

How the data were processed

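The values are log10 ratios of the channels of a spot, deposited by the authors as 1 column per array in 2 tables. What scanner, background correction, filters and normalisation the authors used is not stated in the labels or headers. The log10 scale was settled from the values: of 400 drawn per array, 29.75% to 97.5% were ratios of whole numbers with a denominator up to 5000 (tolerance 6e-10) when read as log10, at most 1.75% as log2 and 3.25% as natural logarithms. Columns were not centred: deposited medians ran from -0.343 to 0.8.

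Values were multiplied by 3.32, averaged per gene across its spots, and shifted so that the median gene of an array was 0, without loess or quantile normalisation; a shift shared by most genes is thereby removed. Symbols were updated through the R64 gene table, where 5578 of the 5583 genes on arrays 1 to 3 and 5534 of the 5539 on arrays 4 and 5 were found. No intensities were used, so brightness over background is not known; precision is limited by there being 5 arrays.

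Genes with a value on at least 4 arrays were fitted in limma 3.58.1 (R 4.3.3) with orientation as an additive term, adjusted by Benjamini-Hochberg over all genes, and checked on simulated data. All 42 genes are named, and from each neighbouring list up to 2 tested genes with the smallest p. The rule for the 42 genes uses function and no measured value, but the genes, lists and tests were chosen with earlier results of these data known. Alternatives covered centring, scaling, spot averaging, neighbours by spot number, the number of arrays asked of a gene, each array or table left out, and arrays of one date averaged. A date block could not be estimated from 1 pair of arrays.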

Additional observations from a re-analysis of the deposited data

How the results depend on the processing

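The count of translation factors called was 0 under all 15 alternatives in the channel reading and under 14 of 15 in the deposited reading; leaving out 1 array gave 0 to 0 calls in the first and 0 to 1 in the second, the 1 being TIF4632 without array 3. It was 0 under each alternative with a translation factor to test on arrays 1, 2 and 5 and on arrays 3 and 4. Calls were as rare over all genes, so these counts say little about translation factors. Among fits of both orientations with at least 2 arrays of each, the most called was 1 of 1098 genes, without array 2 in the channel reading. The number of translation factors tested also varied, for instance 2 with spots set against their neighbours and 18 with genes on at least 3 arrays. Of 212 alternative values of the 8 tested genes, 187 kept their sign and 25 changed it, 6 of them with uncentred arrays. With both duplicate spots required, the share of initiation factors on array 4 was 3.7%, and the elongation minus initiation median there, from 1 initiation gene, was -3.11 in place of 0.31; both settings were added after seeing the data. The median of the 42 genes on array 4 was 0.89 with spots set against their neighbours, and that on array 5 was -0.029 with the first spot of a gene. Set against their neighbours, TEF1 minus TEF2 was -0.0091 on array 2 and -0.71 on array 3, EFT1 minus EFT2 was 1.67 on array 2, and HYP2 minus ANB1 was 0.05 on array 3. With arrays scaled to equal spread, TEF1 minus TEF2 was -0.53 and -0.64 on arrays 2 and 3, EFT1 minus EFT2 was 1.02 on array 4 and TIF1 minus TIF2 was -2.08 on array 4. The cause was not tested. Too few spots of nearby number had a value on arrays 4 and 5 for the copies to be set against their neighbours there.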

Other observations

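Read as log10, a deposited value that equals a ratio of whole numbers also shows those numbers, up to a common factor that has cancelled. On array 1 all 16 values of translation factor spots came out this way, with a smaller number between 682 and 2552 and a larger one between 3687 and 35153. On array 4, 13 of 22 did, with smaller numbers from 5 to 2225. The duplicate spots of TIF34 on array 4, which differed by 2.92 log2 units, came out as 4608 over 55 and 24552 over 2225. Read as log2, at most 1.75% of values came out as such ratios. Whether small numbers go with the widest gaps between duplicate spots was not tested.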
